A study of Mus musculus with 10 samples.

Results

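The comparison described here is between mouse cardiac fibroblasts undergoing reprogramming toward cardiomyocytes with GW501516 and the same kind of cells with the solvent control, across all genes. It was taken by the library names of the count table and rests on 4 of the 10 libraries of the study, 2 labelled MGT+GW501516 and 2 labelled MGT+DMSO. MGT stands for Mef2c, Gata4 and Tbx5, transcription factors of the heart that together turn fibroblasts into induced cardiomyocyte-like cells (iCM). All 4 libraries come from primary neonatal heart cells of genotype WT and age P1-P3, taken at day 14, so both groups carry the 3 factors and, by the labels, differ in the compound alone. The sources used here do not give the doses, the treatment lengths, the delivery vector or the strain. Beside them stand 2 libraries of iCM with ZLN005 at day 14, an activator of Ppargc1a transcription, 2 of cardiac fibroblasts (CF) at day 14 whose label names no factor or compound and 2 of primary cardiomyocytes (CM) at day 3. The titles name the last group as cardiomyocytes, although 2 other label fields repeat the fibroblast entries.

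GW501516 is a synthetic agonist of PPARδ, the nuclear receptor encoded by Ppard. PPARδ binds DNA together with a retinoid X receptor, and fatty acids are its natural ligands. In heart and skeletal muscle it is known for turning on genes of fatty acid uptake, storage, mitochondrial import and beta-oxidation. Another known target is Pdk4, the gene of a kinase that switches off pyruvate dehydrogenase.

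Total counts were 53395818 and 49247770 in the DMSO libraries and 41843624 and 40290880 in the GW501516 libraries, within a range of 39065969 to 61886463 over all 10. Values are TMM-scaled CPM (counts divided by the library size, a depth-corrected level), given for replicate 1 and replicate 2 in that order. Changes are log2 changes with GW501516 against DMSO ± their standard error, n = 2 libraries a group, and "rose", "fell" and "called" mean a Benjamini-Hochberg adjusted p below 0.05 from edgeR's quasi-likelihood test over 15740 genes. The labels do not say that the libraries of a group are separate cultures, so p-values measure the spread between these libraries, which may be technical. With 2 against 2 libraries an exact two-sided permutation test of a single gene cannot go below 0.333, so the tests borrow the spread from all genes and groups. Of the lists summed as a share of all counts, cardiac sarcomere genes held 1.89 and 1.93 percent with DMSO and 2.75 and 2.72 percent with GW501516, against 0.389 and 0.482 percent in CF and 4.86 and 4.89 percent in CM, and fibroblast and matrix genes 7.3 and 7.17 against 5.98 and 6.03 percent. Both groups thus held muscle and fibroblast RNA side by side, and the shares of the 2 groups did not overlap for either list.

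With GW501516, 1228 genes rose (7.80 percent of those tested) and 1095 fell (6.96 percent), together 14.8 percent. Most changes were small: 52.9 percent of the called genes moved by less than 0.5 log2 units, 154 rose and 354 fell by at least 1 log2 unit, and the median called change was 0.411 among rises and −0.578 among falls. CPM ranges of the 2 groups did not overlap for 61.3 percent of all genes, so ranges that do not overlap say little by themselves here. Leaving out any one of the 4 libraries, which also leaves fewer samples to estimate the spread, lowered the rises to 585 to 749 and the falls to 347 to 507. The lists below were chosen with earlier results of these data known. Each is described by its counts, beside the 7.80 and 6.96 percent over all genes. Where a list median is given, it stands beside the median log2 change of −0.005 over all genes. In each list for which only rises are given, edgeR, DESeq2 and limma-voom called 0 falls, and at most 1 member fell at an unadjusted p below 0.05.

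**Figure D1:**
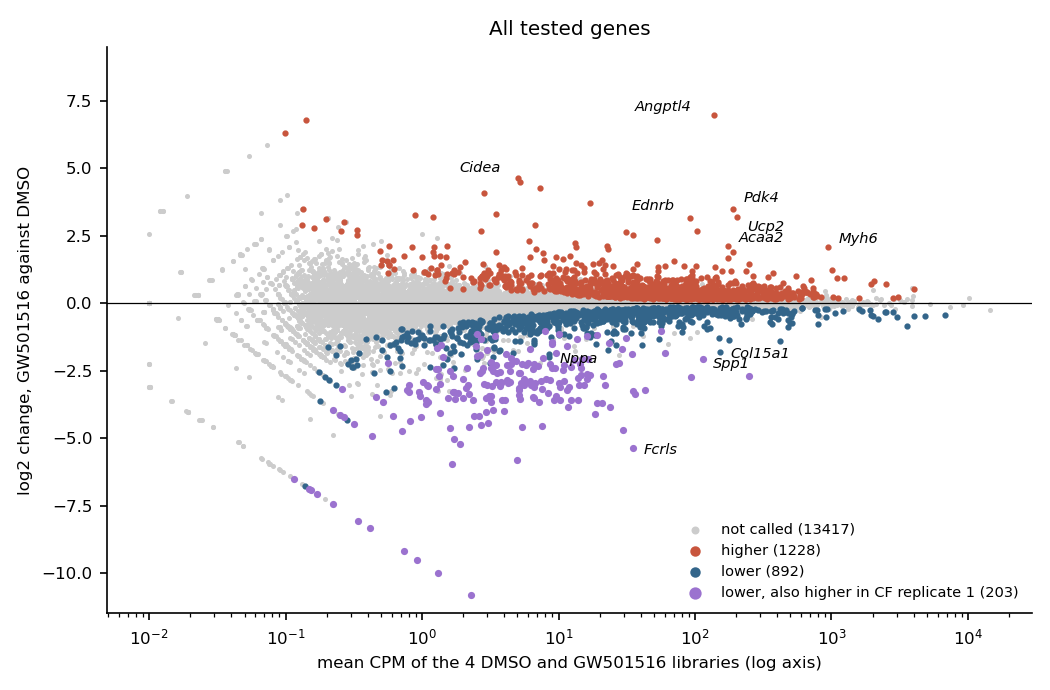
Log2 change with GW501516 against DMSO (vertical axis) by mean CPM of the 4 libraries (horizontal log axis) for the 15740 genes tested, each gene a point. Among genes above 1 CPM, Angptl4 and Cidea have the largest rises, and many of the deepest falls are among the 203 genes in purple, whose level in CF replicate 1 exceeded that in CF replicate 2 by 1 log2 unit or more.

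Of the 12 largest rises by the naming rule, 6 were members of the list of known PPAR targets, Angptl4, Cidea, Slc25a34, Pdk4 and Ucp2 among them. Angptl4, a secreted inhibitor of lipoprotein lipase (chr17:33773750-33781830, mm10), stood at 1.88 and 2.46 CPM with DMSO and at 276 and 269 CPM with GW501516. Both treated libraries lay far above both controls and above the primary cardiomyocytes, whose mean was 17.1 CPM. The change was 126-fold (6.98 ± 0.11 log2 units, adjusted p = 2.05e-10), the largest among named genes. Pdk4, the kinase that switches off pyruvate dehydrogenase (chr6:5483351-5496309), rose from 30.5 and 31.0 to 350.0 and 348 CPM, which is 11.3-fold (3.50 ± 0.049, adjusted p = 1.11e-10). Ucp2, a carrier of the inner mitochondrial membrane (chr7:100493337-100502020), rose from 39.1 and 40.3 to 362 and 369.8 CPM (3.20 ± 0.21, adjusted p = 8.00e-06). For both genes the 2 treated libraries lay close together and above the CM mean, which was 66.8 CPM for Pdk4 and 79.7 CPM for Ucp2.

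Further rises started from levels near the limit of detection. Cidea, a lipid droplet protein, went from 0.391 and 0.383 to 9.66 and 9.73 CPM (4.64 ± 0.18, adjusted p = 1.98e-07). Slc25a34, a mitochondrial carrier (chr4:141618824-141623821), went from 0.558 and 0.322 to 10.5 and 9.48 CPM (4.49 ± 0.29, adjusted p = 6.72e-06). In both genes the treated libraries were above 9 CPM and the controls below 1 CPM.

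Promoter sequence is shown for 4 of the genes that rose, because PPARδ with its partner is known to bind direct repeats of the hexamer AGGTCA spaced by a single base. The 4 were picked without a fixed rule, so how many of them hold the hexamer does not describe the rises as a whole. The sequences come from RefSeq (GRCm38.p6), run 5′ to 3′ in the direction of transcription over the 250 bases before the annotated start, without bases that a GENCODE exon covers, and carry the hexamer, read on either strand, in capitals (TGACCT where it lies on the opposite strand). Pdk4 lies at chr6:5496310-5496528 on the minus strand, Slc25a34 at chr4:141623835-141624084 on the minus strand, Cpt1a at chr19:3323051-3323284 on the plus strand and Plin2 at chr4:86670061-86670309 on the minus strand. The Cpt1a window lies before the RefSeq start but inside the GENCODE span of the gene, chr19:3322334-3385733.
Pdk4: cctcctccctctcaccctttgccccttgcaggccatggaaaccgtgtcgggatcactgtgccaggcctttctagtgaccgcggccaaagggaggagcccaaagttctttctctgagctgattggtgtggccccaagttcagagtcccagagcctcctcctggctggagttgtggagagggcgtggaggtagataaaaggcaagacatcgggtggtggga
Slc25a34: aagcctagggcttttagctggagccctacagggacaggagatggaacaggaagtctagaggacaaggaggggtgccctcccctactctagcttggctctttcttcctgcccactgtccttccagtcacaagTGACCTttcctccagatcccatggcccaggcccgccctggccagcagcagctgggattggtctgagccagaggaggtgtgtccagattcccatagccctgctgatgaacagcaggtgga
Cpt1a: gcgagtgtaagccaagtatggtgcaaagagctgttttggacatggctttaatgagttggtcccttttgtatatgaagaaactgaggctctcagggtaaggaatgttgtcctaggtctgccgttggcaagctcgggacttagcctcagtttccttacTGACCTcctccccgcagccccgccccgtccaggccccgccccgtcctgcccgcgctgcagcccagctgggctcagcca
Plin2: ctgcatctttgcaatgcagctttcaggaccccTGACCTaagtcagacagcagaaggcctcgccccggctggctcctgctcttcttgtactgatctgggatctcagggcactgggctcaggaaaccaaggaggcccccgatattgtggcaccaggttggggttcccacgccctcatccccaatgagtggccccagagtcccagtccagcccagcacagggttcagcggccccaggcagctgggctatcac
Slc25a34, Cpt1a and Plin2 each held 1 hexamer, 119, 94 and 218 bases before the RefSeq start, and these letters were not found in the Pdk4 window. The hexamer occurred in 15.8 percent of the 27025 genes with a promoter entry, in 13.4 percent of the tested genes with one, in 16.7 percent of those that rose and in 14.5 percent of those that fell. The whole repeat, the hexamer followed by any base and the hexamer again, was searched on both strands. It occurred in 0.0407 percent of all genes with an entry and 0.0495 percent of the tested ones. Among genes with an entry it occurred in 2 of 947 that rose (0.211 percent) and 0 of 829 that fell. A looser repeat, with any base in place of the thymine of each hexamer, occurred in 3 of the 947 (0.317 percent) and 2 of the 829 (0.241 percent). It occurred in 0.281 percent of the tested genes with an entry, close to both shares. The 30 PPAR targets with an entry held the hexamer in 9 cases and the whole repeat in 0. A match describes the letters in this window and nothing about binding.

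The whole list of 41 PPAR targets had 39 tested members, of which 24 rose, with a median log2 change of 0.684. Among them 8 of 14 lipid handling genes, 11 of 15 genes of fatty acid oxidation and ketogenesis and 3 of 4 genes of fuel choice and uncoupling rose. Between 20 and 21 members rose when any one library was left out, and 24 with limma-voom. In the mitochondrial import step, Cpt1a, the rate-limiting carnitine palmitoyltransferase (chr19:3322334-3385733), stood at 131 and 137 CPM with DMSO and 364 and 369 CPM with GW501516. The treated libraries lay above every other library of the study, and the change was 1.45 ± 0.070 (adjusted p = 9.05e-07). Slc25a20, the carnitine-acylcarnitine carrier, rose by 0.73 ± 0.085, Crat, carnitine acetyltransferase, by 0.49 ± 0.041, and Cpt2, the inner-membrane transferase, by 0.27 ± 0.057. The Cpt2 call was lost without any one of the 4 libraries, with adjusted p from 0.0659 to 0.0767.

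Genes of lipid droplets and storage were also among the rises. Plin2, which coats lipid droplets (chr4:86648386-86670060), was at 78.1 and 78.9 CPM with DMSO and 204 and 195 CPM with GW501516, and the 2 groups did not overlap (1.35 ± 0.12, adjusted p = 4.86e-05). Plin4, another droplet coat protein, rose by 1.06 ± 0.14 and Fabp3, the heart fatty acid binding protein, by 0.73 ± 0.071, from 16.4 and 15.5 to 27.9 and 25.1 CPM, still 8.22 percent of the CM level. Acsl1, which activates long-chain fatty acids, rose by 0.32 ± 0.049. Lpl, lipoprotein lipase, rose by 0.36 ± 0.086 and Pnpla2, the adipose triglyceride lipase, by 0.33 ± 0.082. Both calls were lost without any one of the 4 libraries, with adjusted p from 0.0689 to 0.145 for Lpl and from 0.0631 to 0.182 for Pnpla2. Among other members Klf10, a transcription factor, rose by 0.37 ± 0.051 and Retsat, retinol saturase, by 0.48 ± 0.10. The Retsat call was lost without DMSO replicate 1 (adjusted p = 0.0906) or GW501516 replicate 2 (adjusted p = 0.0968).

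The 15 targets that did not pass the test were of 2 kinds. Some were expressed above 1 CPM: the fatty acid transporter gene Cd36 differed by −0.29 ± 0.18 (adjusted p = 0.342), Fabp4 by −0.07 ± 0.25, Fabp5 by −0.10 ± 0.13, the monoglyceride lipase gene Mgll by 0.02 ± 0.10 and Ehhadh, a peroxisomal enzyme, by 0.09 ± 0.14. Vnn1, Eci1 and Tmem37 also belonged here, with log2 differences from −0.14 to 0.22. The rest had group means near or below 1 CPM. Ucp3, an uncoupling protein of muscle, had a log2 difference of 2.84 ± 1.21 (adjusted p = 0.156) and Fgf21, a hormone of fasting, of 1.78 ± 0.54 (adjusted p = 0.0534). Acot1, a cytosolic thioesterase, differed by 1.24 ± 0.42 (adjusted p = 0.077), so these low genes are undecided at this depth. Some of these calls turned on the fit: Fgf21 passed with DESeq2 (adjusted p = 0.0468), and with only the 3 iCM groups Fgf21 (0.014), Ucp3 (0.0473), Vnn1 (0.0159) and Cd36 (0.0201, lower) did. Cidec did not pass the filter on low counts.

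**Figure D2:**
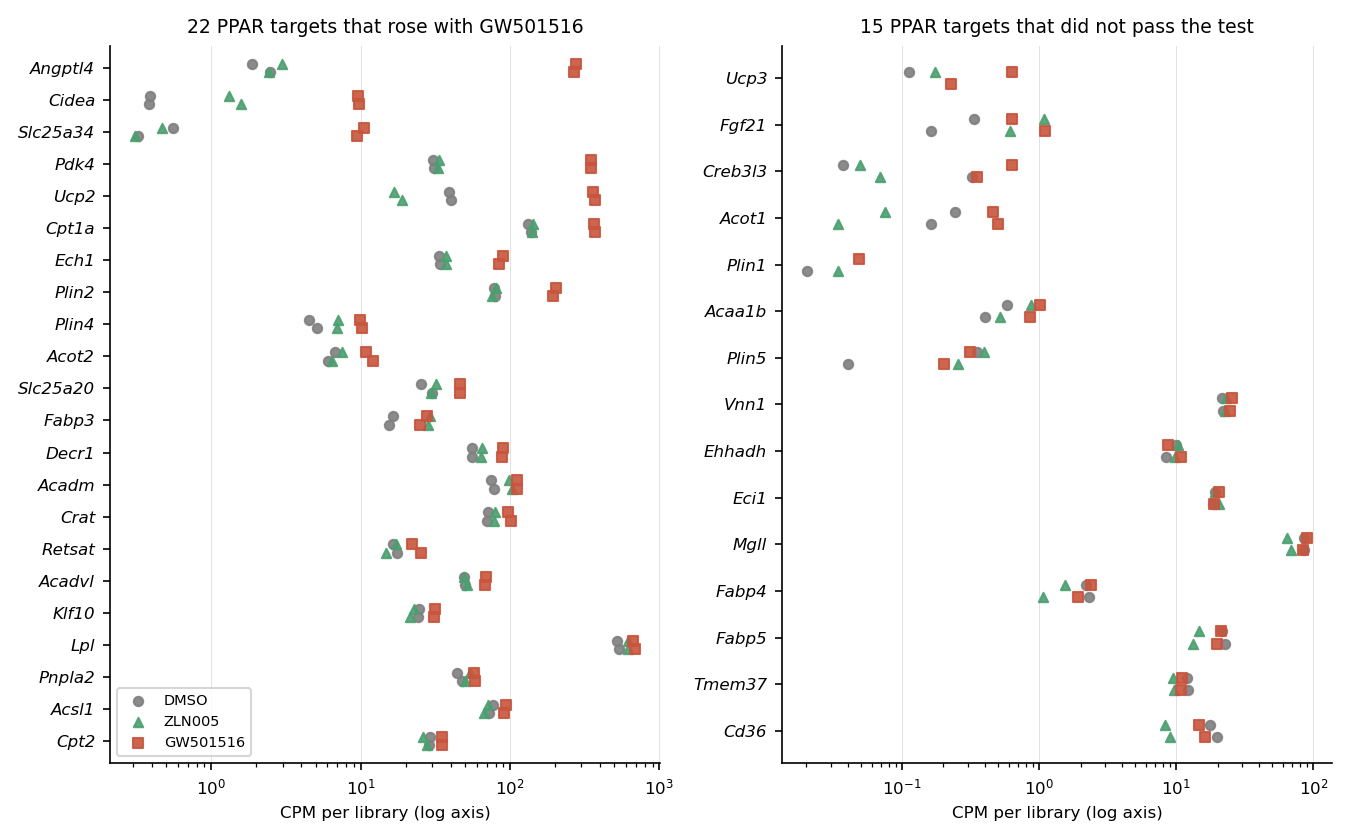
CPM per library on a log axis for 37 of the 39 tested PPAR targets, with 2 points per gene for each of DMSO, ZLN005 and GW501516 (a library at 0 has no point). The left panel holds 22 of the 24 genes that rose, where the GW501516 points lie to the right of the DMSO points, and the right panel the 15 that did not pass the test.

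The receptors themselves did not pass the test, with 0 of 6 called by edgeR and 1 at an unadjusted p below 0.05, and DESeq2 and limma-voom called 0 of 6 as well. Ppard (chr17:28232700-28301474) stood at 30.5 and 32.8 CPM with DMSO and 34.4 and 36.5 CPM with GW501516. The treated libraries were slightly higher, with a difference of 0.17 ± 0.061 (adjusted p = 0.103, and 0.0414 when only the 3 iCM groups were fitted). Ppara differed by 0.27 ± 0.24, Pparg by −0.06 ± 0.15 and the partner receptor gene Rxra by −0.10 ± 0.050. Ppargc1a, the coactivator PGC1α, was low, at 1.99 and 2.38 CPM with DMSO against 2.27 and 3.39 CPM with GW501516, with overlapping groups and a difference of 0.37 ± 0.19 (adjusted p = 0.239). Of 12 cofactors and related receptors 3 rose and 1 fell. Ppargc1b, the sister coactivator, rose by 0.90 ± 0.13, Esrrg by 0.90 ± 0.12 and Esrra by 0.36 ± 0.066, the last lost without DMSO replicate 2 (adjusted p = 0.0576). Esrrg and Esrra encode estrogen-related receptors that act on genes of oxidative metabolism.

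The reprogramming factors, whose counts may hold transgene as well as endogenous reads, were close between the groups. Tbx5 differed by 0.00 ± 0.050 and Mef2c by −0.05 ± 0.072, while Gata4 rose by 0.24 ± 0.052 (adjusted p = 0.0128), a call lost without any one of the 4 libraries (adjusted p from 0.0695 to 0.105).

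Most genes of the mitochondrial beta-oxidation pathway rose, several of them PPAR targets as well. Of 30 tested genes of fatty acid oxidation, a list that overlaps the PPAR targets, 21 rose (19 to 20 with a library left out), with a median of 0.482. Acaa2, the thiolase of the last step of the cycle, stood at 64.2 and 67.2 CPM with DMSO and at 291 and 276 CPM with GW501516, and Acadl, the long-chain acyl-CoA dehydrogenase, at 83 and 82.8 CPM with DMSO against 269.9 and 259 CPM with GW501516. Neither gene's groups overlapped, and the changes were 2.11 ± 0.045 (adjusted p = 2.09e-09) and 1.67 ± 0.047 (adjusted p = 1.74e-08). Ech1, an enoyl-CoA isomerase, rose from 33.7 and 34.1 to 90.0 and 84.8 CPM (1.37 ± 0.050). Acadm and Acadvl, the medium- and very long-chain dehydrogenases, rose by 0.55 ± 0.057 and 0.47 ± 0.060, Hadhb of the trifunctional protein by 0.62 ± 0.048, and Decr1, needed for unsaturated chains, by 0.68 ± 0.054. By step, 11 of 13 genes of beta-oxidation, 7 of 11 of activation and transport and 1 of 4 peroxisomal genes rose. Etfdh, which passes the electrons on to ubiquinone, rose by 0.65 ± 0.051. Catalase, the peroxisomal gene Cat of the antioxidant list, rose by 0.51 ± 0.051.

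Of 19 genes that build and desaturate fatty acids 9 rose, with a median of 0.201. They were 5 of 14 synthesis genes (median 0.164) and 4 of 5 desaturation genes (median 0.644). Scd1, the stearoyl-CoA desaturase (chr19:44394455-44407879), was at 74.5 and 72.2 CPM with DMSO and 130.1 and 130.0 CPM with GW501516. Treated libraries lay above both controls and close to the CM mean of 115 CPM (0.83 ± 0.066, adjusted p = 2.77e-05). Acacb, the acetyl-CoA carboxylase whose product inhibits Cpt1, rose from 9.38 and 8.70 to 36.1 and 37.3 CPM (2.02 ± 0.075). Scd2 rose by 0.69 ± 0.047, Fads2 by 0.64 ± 0.052, Fads1 by 0.33 ± 0.045 and Gpam, which starts glycerolipid synthesis, by 0.67 ± 0.049.

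Sterol synthesis genes mostly moved in the same direction. Of 24 genes of cholesterol synthesis and sensing, 15 rose (12 to 14 with a library left out), with a median of 0.366. Insig1, a sensor that holds back the sterol regulator SREBP, stood at 51.0 and 53 CPM with DMSO and 95.9 and 94.2 CPM with GW501516, without overlap (0.87 ± 0.042, adjusted p = 9.05e-07). Stard4, a sterol carrier, rose by 0.85 ± 0.060 and the synthesis enzyme genes Hsd17b7, Hmgcs1 and Msmo1 by 0.68 ± 0.061, 0.59 ± 0.058 and 0.58 ± 0.058. The 9 targets of the liver X receptors did not move as a list, with a median of −0.01. Of these 4 had a positive and 5 a negative change, 1 of them lower at an unadjusted p below 0.05. The 2 that rose were Abca1, which exports cholesterol, from 98.5 and 94.5 to 218 and 219.8 CPM (1.18 ± 0.047) and Lpcat3, a phospholipid remodelling enzyme, by 0.65 ± 0.062.

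The direct comparison of GW501516 with ZLN005 shows where lipid genes differed between the compounds, without using the DMSO libraries. The doses of both compounds are not given, so the contrast compares these libraries as treated. There 554 genes were higher with GW501516 (3.52 percent of those tested) and 242 lower (1.54 percent), together 5.06 percent. When any one of its 4 libraries was left out, 260 to 279 were higher and 81 to 105 lower. Of 39 PPAR targets 23 were higher with GW501516 (16 to 19 with a library left out), of 30 fatty acid oxidation genes 21 (16 to 18), and of 24 cholesterol genes 21 (18 to 20), with none lower by edgeR. Angptl4 was higher by 6.67 ± 0.11, Pdk4 by 3.39 ± 0.049 and Ucp2 by 4.36 ± 0.23 log2 units.

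Both compounds were compared with the same 2 DMSO libraries, so their changes against DMSO share an error and are only set side by side here. Insig1 stood at 29.5 and 28.7 CPM with ZLN005, below the controls, whereas it lay above them with GW501516 (a difference of 1.71 ± 0.044 between the compounds, adjusted p = 1.48e-08). Scd2 differed by 1.35 ± 0.048 and Fads2 by 1.27 ± 0.053, again lower with ZLN005 and higher with GW501516 than with DMSO. Ucp2, at 16.8 and 18.8 CPM with ZLN005, was also below its DMSO level. Abca1 showed no such split, with 234 and 234 CPM with ZLN005 and a difference of −0.10 ± 0.046 (adjusted p = 0.312). By count, 6 PPAR targets rose and 6 fell with ZLN005 against DMSO, where 6.64 percent of all genes tested rose and 8.84 percent fell, and of the cholesterol genes none rose and 19 fell by edgeR.

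**Figure D3:**
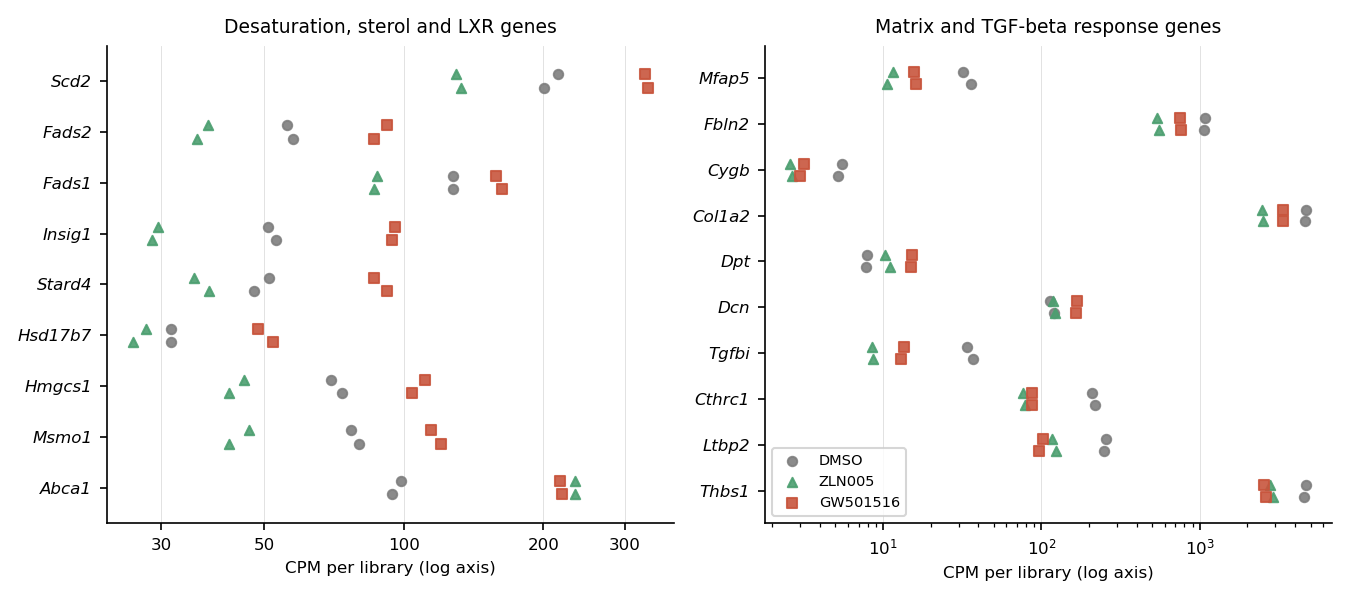
CPM per library on log axes for 9 desaturation, sterol and LXR genes (left) and 10 matrix and TGF-beta response genes (right), with 2 points per gene for each of DMSO, ZLN005 and GW501516. On the left the DMSO points of 8 genes lie between ZLN005 and GW501516, with Abca1 the exception, and on the right most genes are lower with both compounds than with DMSO.

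Genes of carbohydrate use rose in part. Of 24 glycolysis genes 14 rose, with a median of 0.369, led by Slc16a1, a transporter of lactate and pyruvate, which went from 61.0 and 63.3 to 125 and 129.6 CPM (1.03 ± 0.042). Eno3, the muscle enolase, rose by 0.90 ± 0.091 and Pfkp, a phosphofructokinase, by 0.52 ± 0.046. In the direct contrast with ZLN005 none of the glycolysis genes was higher and 2 were lower by edgeR. Of 13 genes of pyruvate dehydrogenase, its control and pyruvate entry, 7 rose. Among them were Pdk4, the complex subunit genes Pdha1, Pdhx and Dld and the pyruvate carrier gene Mpc2. The 2 that fell were the phosphatase gene Pdp1 (−0.32 ± 0.078) and the pyruvate carrier gene Mpc1 (−0.50 ± 0.12). Fewer of the 13 rose and fewer fell with any one library left out. Pdp1 lost its call without any one of the 4 libraries (adjusted p from 0.0558 to 0.165) and Mpc1 without DMSO replicate 1 (0.143), DMSO replicate 2 (0.0659) or GW501516 replicate 2 (0.159). Of 23 genes of the tricarboxylic acid cycle 16 rose, Suclg1, a subunit of succinyl-CoA ligase, by 0.49 ± 0.047 and Mdh1, a malate dehydrogenase, by 0.43 ± 0.054, and 1 fell, Pcx, pyruvate carboxylase, from 20.8 and 22 to 14.5 and 14.8 CPM (−0.54 ± 0.070). The rises of the cycle numbered 5 to 9 with any one library left out.

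In the respiratory chain, 18 of 21 nuclear genes of complexes III and IV and cytochrome c rose, with a median of 0.456 (15 to 18 with a library left out). Cox8a, a subunit of cytochrome c oxidase, went from 86.0 and 85.9 to 119.6 and 116 CPM (0.46 ± 0.040), Cycs, cytochrome c, rose by 0.46 ± 0.047 and Uqcrq of complex III by 0.58 ± 0.057. Complex I had 18 of 35 genes up and a median of 0.264, and Ndufa5 rose by 0.54 ± 0.063. Its count moved most: 3 without DMSO replicate 1, 5 without GW501516 replicate 1, 7 without GW501516 replicate 2, 20 without DMSO replicate 2 and 32 with only the 3 iCM groups. ATP synthase had 12 of 16 up (6 without DMSO replicate 1, 6 without GW501516 replicate 1, 8 and 11 without the others), and Atp5a1 of its catalytic part rose by 0.38 ± 0.043. None of the 13 mitochondrially encoded genes was called by edgeR, with 2 up and 1 down at an unadjusted p below 0.05, 3 up by DESeq2, 1 up by limma-voom, and 4 up and 2 down with only the 3 iCM groups. Their reads can be shared with nuclear copies. Of 24 genes of mitochondrial biogenesis and dynamics 3 rose, Ppargc1b, Esrra and the fusion gene Mfn2 (0.44 ± 0.051). With ZLN005 against the same controls, 14 of the 21 genes of complexes III and IV and cytochrome c rose and 1 fell. Complex I had 8 of 35 up and ATP synthase 8 of 16. In the direct contrast 5, 1 and 0 of these genes, in that order, were higher with GW501516 and 0 lower by edgeR. With a library left out, 0 to 2, 0 to 1 and 0 to 1 were higher.

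**Figure D4:**
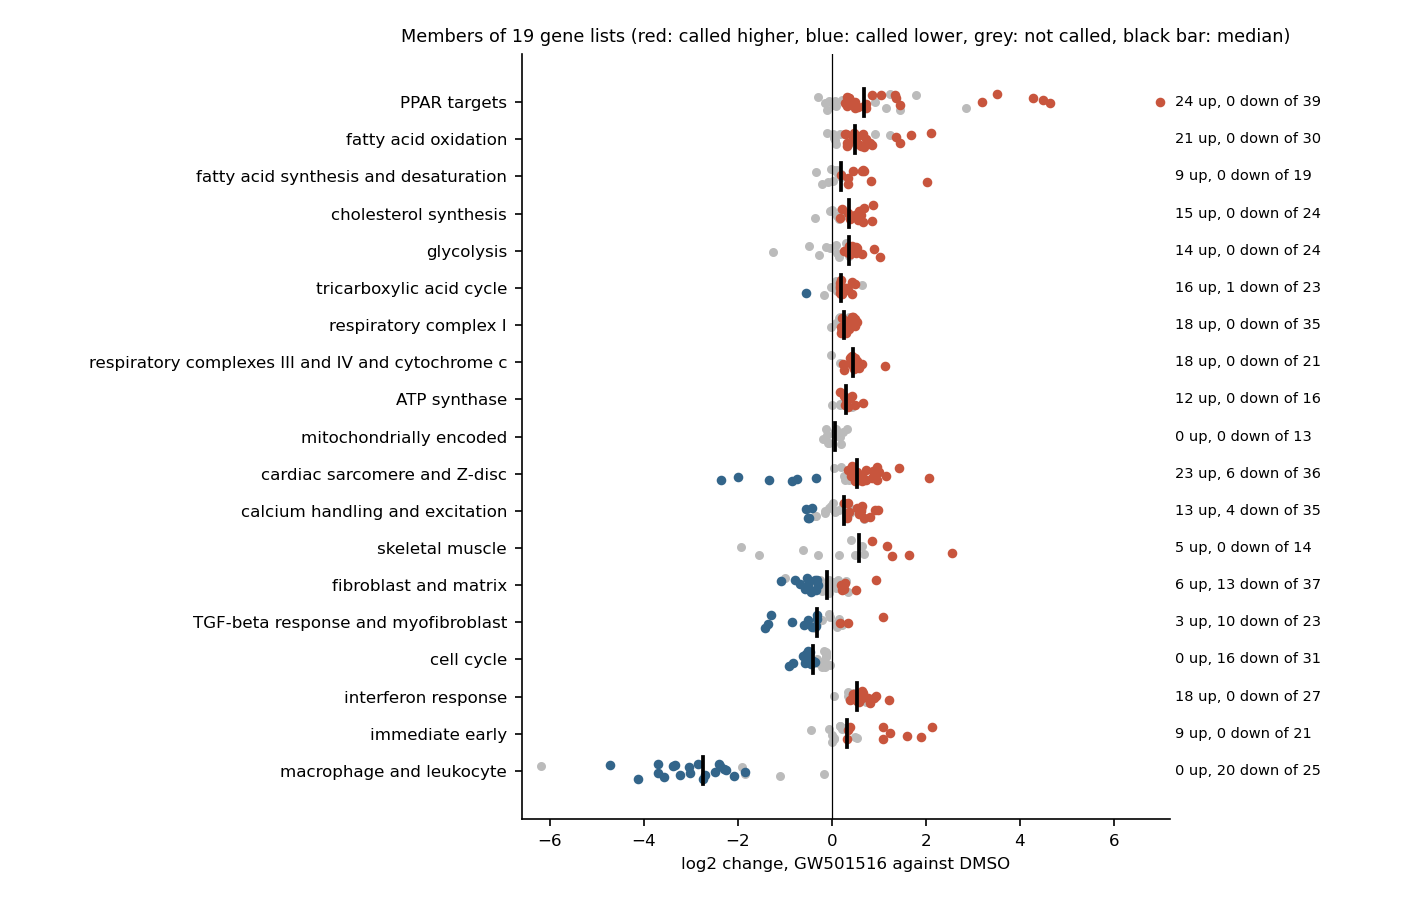
Log2 change with GW501516 against DMSO (horizontal axis) of every tested member of 19 gene lists (rows), with called members in colour, members not called in grey and the list median as a black bar. Lipid lists lie to the right of 0, cell cycle and macrophage lists to the left, and the sarcomere list holds 23 rises and 6 falls.

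Contractile genes mostly rose, as they did with ZLN005. Among 36 tested sarcomere and Z-disc genes there were 23 rises and 6 falls, with a median of 0.526 (16 to 19 rises and 3 to 5 falls with a library left out). Myh6, the fast alpha myosin of the heart (chr14:54941921-54966927), stood at 373 and 358 CPM with DMSO and at 1517 and 1550.0 CPM with GW501516. Groups did not overlap, the change was 2.07 ± 0.063 (adjusted p = 2.18e-08), and the level went from 3.79 to 15.9 percent of the CM mean. Actn2, the Z-disc alpha-actinin, rose by 0.92 ± 0.043, Myom2 of the M-band by 0.99 ± 0.053, Myoz2, which tethers calcineurin at the Z-disc, by 1.42 ± 0.094 and Smpx, a small muscle protein, by 0.73 ± 0.050. The summed fibroblast share of the counts given above moved the other way, and its part in these rises was not tested. Of 14 Z-disc genes 13 rose, the highest share of the 4 groups of this list. With ZLN005 against the same controls, 26 of the 36 sarcomere and Z-disc genes rose and 5 fell. In the direct contrast 3 were higher with GW501516 and 3 lower. Csrp3, the muscle LIM protein, rose from 24.8 and 25.2 to 46.5 and 51.1 CPM (0.97 ± 0.056), while it stood at 133 and 133 CPM with ZLN005, a difference of −1.45 ± 0.053 between the compounds. Myh6 was the opposite, higher with GW501516 than with ZLN005 by 0.68 ± 0.061.

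The falls within the list, named here after their values were seen, were of genes far below their CM level in iCM. This also held for genes that rose, such as Csrp3 at 4.28 percent of its CM level with DMSO. Myl2, the ventricular regulatory light chain, went from 5.27 and 5.34 to 1.64 and 0.978 CPM (−2.01 ± 0.22), against a CM mean of 1520.0 CPM. With ZLN005 it stood at 1.14 and 1.42 CPM. Myl3, the ventricular essential light chain, changed by −2.37 ± 0.43, Trim55, a muscle ubiquitin ligase, by −1.35 ± 0.22, Mylk3, the cardiac light chain kinase, by −0.84 ± 0.13, Tnni1, the slow skeletal troponin I, by −0.74 ± 0.19 and Nebl, nebulette, by −0.34 ± 0.083. The calls of Myl3 (adjusted p = 0.0505 without GW501516 replicate 2 and 0.0503 with limma-voom), Tnni1 and Nebl were not stable. Tnni1 lost its call without DMSO replicate 2 (0.159), GW501516 replicate 1 (0.128) or replicate 2 (0.126) and with limma-voom (0.201), and Nebl without DMSO replicate 1 (0.188), GW501516 replicate 1 (0.105) or replicate 2 (0.139) and with limma-voom (0.0985). The natriuretic peptide genes fell from similarly low levels. Nppa went from 12.3 and 14.8 to 3.26 and 3.64 CPM (−1.98 ± 0.13, adjusted p = 8.48e-06) against 5194 CPM in CM. It stood at 5.05 and 4.41 CPM with ZLN005, also below its DMSO level. The second peptide gene, Nppb, changed by −1.35 ± 0.19. Corin, the protease that activates these peptides, rose from 26.7 and 27.4 to 51.9 and 52.8 CPM (0.95 ± 0.062) and was higher than with ZLN005 by 0.74 ± 0.062.

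Among 22 cardiac transcription factors and peptides 7 rose and 3 fell, with a median of −0.044. The falls were of Nppa, Nppb and the repressor gene Hey2 (−1.09 ± 0.29). The Hey2 call was lost with limma-voom (adjusted p = 0.0649) and without DMSO replicate 1 (0.069), DMSO replicate 2 (0.172) or GW501516 replicate 1 (0.211). Smyd1, a muscle methyltransferase, rose by 0.85 ± 0.078, the serum response factor gene Srf by 0.68 ± 0.084 and Hopx, a homeodomain protein, by 1.15 ± 0.14. Among 35 genes for calcium handling and excitation there were 13 rises and 4 falls, with a median of 0.267 (9 to 13 rises and 1 to 4 falls with a library left out). Atp2a2, the calcium pump SERCA2, rose from 1509 and 1468 to 2601 and 2645 CPM (0.82 ± 0.053) and reached 56.2 percent of the CM mean. With ZLN005 against DMSO, 13 genes of this list rose and 4 fell as well. The triadin gene Trdn, part of the calcium release unit, rose by 0.69 ± 0.045, Sln, sarcolipin, by 0.65 ± 0.050, Popdc2 by 0.98 ± 0.066 and the potassium channel gene Kcnj5 by 0.92 ± 0.094. Among the falls, named after their values were seen, were the calcium channel genes Cacna1c (−0.42 ± 0.082) and Cacnb2 (−0.49 ± 0.10) and the calsequestrin gene Casq1 (−0.54 ± 0.083). Leaving out 1 library ended the calls of both channel genes. Cacna1c lost its call without DMSO replicate 1 (adjusted p = 0.0809) or GW501516 replicate 1 (0.0813), and Cacnb2 without DMSO replicate 1 (0.0727), GW501516 replicate 1 (0.0572) or replicate 2 (0.0737) and with limma-voom (0.0967). Skeletal muscle genes were a small group with 5 rises of 14 tested. Myl1, a light chain of fast and developing muscle, went from 9.99 and 10.7 to 60.4 and 60.5 CPM (2.55 ± 0.068), Tnnt3, the fast troponin T, rose by 1.27 ± 0.088 and Myh8, the perinatal myosin, by 1.64 ± 0.24.

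**Figure D5:**
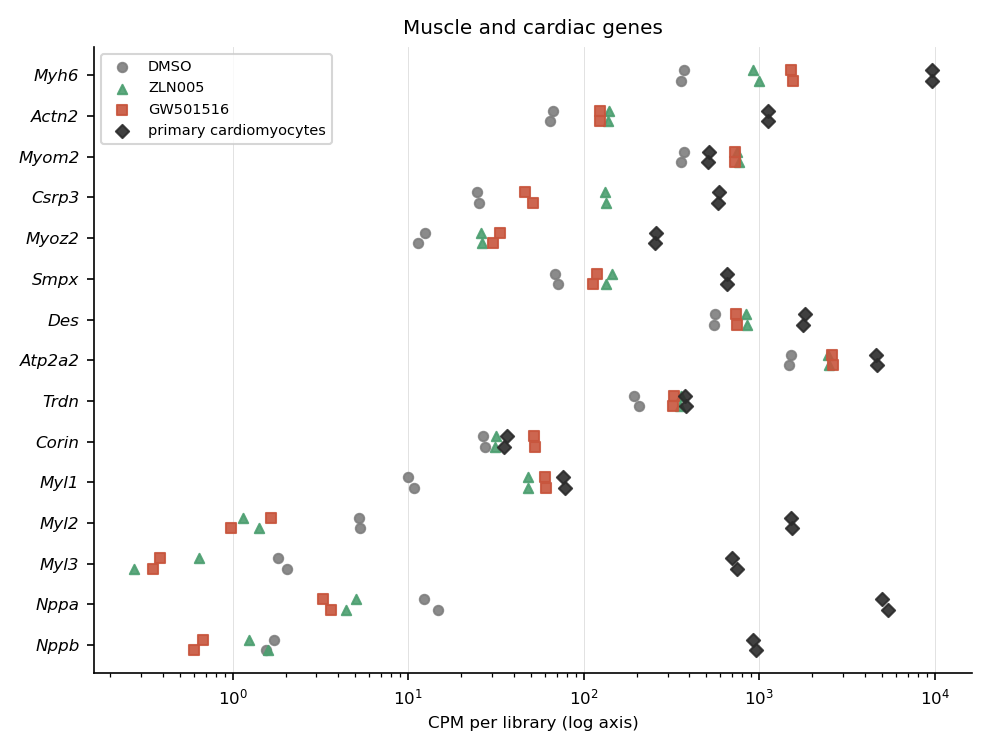
CPM per library on a log axis for 15 muscle and cardiac genes, with 2 points per gene for each of DMSO, ZLN005, GW501516 and primary cardiomyocytes. Myh6 and the Z-disc genes move to the right with GW501516 while Myl2, Myl3, Nppa and Nppb move to the left, away from the primary cardiomyocytes.

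Set against the difference between primary cardiomyocytes and fibroblasts, which shares no library with this comparison, the rises and falls pointed both ways. Of the 1228 genes that rose, 730 were also higher in CM than in CF and 380 lower, where 34.5 and 36.2 percent of all genes tested were. Of the 1095 that fell, 627 were lower in CM and 318 higher. Together 1357 genes moved toward CM and 698 away, or 66 percent of those called in both comparisons. As a share of the other list, 13.4 percent of the genes higher in CM rose with GW501516 and 11 percent of those lower in CM fell. CM and CF also differ in day and in cell makeup, so this is a description of direction.

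Matrix genes were reduced in part. Among 37 fibroblast and matrix genes there were 13 falls and 6 rises, with a median of −0.114. Col1a2, a chain of type I collagen, went from 4697 and 4646 to 3351 and 3361 CPM, without overlap (−0.48 ± 0.070, adjusted p = 0.00139). Mfap5, a microfibril protein, fell from 32.0 and 35.7 to 15.7 and 16.1 CPM (−1.09 ± 0.090), Fbln2, a fibulin, changed by −0.50 ± 0.059 and Cygb, cytoglobin, by −0.79 ± 0.11, the last lost with limma-voom (adjusted p = 0.0548). Against this, Dcn, decorin, rose by 0.52 ± 0.045 and Dpt, dermatopontin, from 7.89 and 7.82 to 15.2 and 15.1 CPM (0.95 ± 0.075). With ZLN005, 24 of these genes fell and 2 rose against the same controls, and in the direct contrast 20 were higher with GW501516 and 1 lower. The rises among the 37 numbered 2 to 3 with any one library left out, and the genes higher than with ZLN005 numbered 9 to 12. The falls were 8 without GW501516 replicate 1 and 11 to 12 without the others.

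Of 23 genes of the TGF-beta response 10 fell and 3 rose, with a median of −0.309. Tgfbi, a secreted protein induced by TGF-beta, went from 33.7 and 36.8 to 13.6 and 12.9 CPM (−1.41 ± 0.085, adjusted p = 4.37e-06). Ltbp2, a latent TGF-beta binding family member, changed by −1.35 ± 0.10, Cthrc1, a collagen regulator, by −1.29 ± 0.071 and Thbs1, thrombospondin, which activates latent TGF-beta, by −0.84 ± 0.10 from 4651 and 4581 CPM. Tagln, a smooth muscle actin-binding protein of this list, rose by 1.09 ± 0.10. The other rises were of the ligand gene Tgfb3 (0.35 ± 0.072), lost without DMSO replicate 2 (adjusted p = 0.0725), GW501516 replicate 1 (0.0712) or replicate 2 (0.0722), and of Thbs2 (0.18 ± 0.046), lost without any one of the 4 libraries (0.116 to 0.181). The falls numbered 5 to 6 and the rises 1 to 2 with any one library left out. With ZLN005 against the same controls, 12 of the 23 fell and 4 rose. In the direct contrast 4 were higher with GW501516 and 1 lower by edgeR (3 and 0 with any one library left out).

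Cell cycle genes fell, 16 of 31 with a median of −0.404, where 6.96 percent of all genes did, and none rose by edgeR, DESeq2, limma-voom or at an unadjusted p below 0.05. They were mostly mitotic genes, 14 of 20, against 2 of 11 of DNA replication. With ZLN005 against the same controls 23 of the 31 fell, and none was called between the compounds by edgeR. Mki67, the proliferation marker, went from 57.8 and 53.1 to 28.8 and 30.2 CPM, without overlap (−0.91 ± 0.13, adjusted p = 0.0014). Top2a, a topoisomerase of dividing cells, changed by −0.55 ± 0.091 and the kinetochore motor gene Cenpe by −0.61 ± 0.092. The count was 8 to 10 with any one library left out and 11 with limma-voom, and all 31 genes were higher in CM than in CF.

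Interferon-stimulated genes rose, 18 of 27 with a median of 0.53 (10 without DMSO replicate 1 and 12 to 14 without the others), and all 18 lay outside the 875 genes, described below, in which the CF libraries disagreed. Irf7, a transcription factor of the interferon response, went from 138 and 146 to 332 and 325 CPM (1.21 ± 0.11, adjusted p = 5.96e-05). Rsad2, an antiviral enzyme, rose by 0.94 ± 0.094, Bst2, tetherin, by 0.65 ± 0.066 and Gbp2, a guanylate binding protein, by 0.57 ± 0.050. All 27 interferon genes were lower in CM than in CF. With ZLN005 against DMSO 13 of them rose, and 4 were higher with GW501516 than with ZLN005. Immediate early genes rose in 9 of 21 cases, with a median of 0.317. Fos went from 8.23 and 8.42 to 34.9 and 38.5 CPM (2.14 ± 0.15), and Egr1 from 79.1 and 80.0 to 292 and 302 CPM (1.90 ± 0.050). With ZLN005 Egr1 stood at 326 and 331 CPM, a difference of −0.14 ± 0.048 between the compounds (adjusted p = 0.138). Over the immediate early list, 14 of 21 rose with ZLN005 against DMSO. In the direct contrast 5 were lower with GW501516 and 0 higher by edgeR, with 1 to 2 lower when a library was left out.

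Macrophage and leukocyte genes fell together. Their summed share of the counts was 0.182 and 0.186 percent with DMSO, 0.0578 and 0.0575 percent with GW501516 and 0.0627 and 0.0607 percent with ZLN005, against 0.511 and 0.103 percent in the 2 CF libraries and 0.0159 and 0.0158 percent in CM. Of 25 tested genes 20 fell and none rose by edgeR, with a median of −2.74. Csf1r, the receptor that macrophages need, went from 65.9 and 65.6 to 6.43 and 6.22 CPM (−3.38 ± 0.61), a call lost without GW501516 replicate 1 (adjusted p = 0.0563) or replicate 2 (0.054) and with limma-voom (0.105). Spp1, osteopontin, went from 183 and 186 to 44.7 and 42.7 CPM (−2.08 ± 0.33, adjusted p = 0.00214). In bulk RNA, fewer macrophages and less RNA per macrophage cannot be told apart. The fit shares its spread with the CF libraries, and these disagreed on the list: 23 of the 25 genes are among the 875 genes whose level in CF replicate 1 exceeded that in the other CF library by 1 log2 unit or more. The count was 2 with limma-voom, 8 without DMSO replicate 1, 9 without DMSO replicate 2, 2 without GW501516 replicate 1, 3 without GW501516 replicate 2 and 23 with only the 3 iCM groups.

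The same set held 203 of the 1095 falls, and 23.2 percent of the set fell. Outside it 892 genes fell and 1217 rose of 14865, and 1165 genes moved toward CM and 691 away. The 12 largest falls by the naming rule were all in this set, among them Mrc1, the macrophage mannose receptor (−4.71 ± 1.12), Cx3cr1, a chemokine receptor (−4.12 ± 0.70), Fcrls (−5.36 ± 0.98) and Stab1 (−3.85 ± 0.68). Limma-voom called none of the 12 (adjusted p from 0.191 to 0.63), and without GW501516 replicate 1 the calls of 11 of them were lost, all but that of the Fc receptor gene Fcgr2b (0.0529 to 0.15). Without GW501516 replicate 2 the number was 8 (0.0548 to 0.142), and without DMSO replicate 1 or 2 it was 2 each (0.0614 to 0.0679). Outside the set, with genes chosen after seeing their values, Col15a1, a basement membrane collagen, went from 242 and 230.3 to 68.4 and 66.4 CPM (−1.81 ± 0.11, adjusted p = 4.63e-06). Smoc1, a matricellular protein, changed by −1.85 ± 0.17 and the gut and brain peptide gene Cck by −1.87 ± 0.20. Col15a1 (103 and 106 CPM), Smoc1 (2.87 and 2.29 CPM) and Cck (1.29 and 1.20 CPM) were also below their DMSO levels with ZLN005.

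The remaining large rises and falls were not members of a metabolic list. Ednrb, the endothelin B receptor, stood at 18.4 and 18.9 CPM with DMSO and 169 and 164 CPM with GW501516, without overlap (3.16 ± 0.36, adjusted p = 0.000292), and Vipr2, a receptor of vasoactive intestinal peptide, went from 1.25 and 1.89 to 12.9 and 10.7 CPM (2.91 ± 0.25). Zbtb16, a transcriptional repressor, rose by 3.32 ± 0.29 and Dnajb13, a DNAJ family gene, by 4.07 ± 0.46. Tpm3-rs7 rose by 2.68 ± 0.058, but its reads can be shared with near-identical tropomyosin copies. It was also high with ZLN005, at 162 and 166 CPM against 182 and 176 CPM with GW501516 (a difference of 0.13 ± 0.053, adjusted p = 0.256). Srp54b, which has close copies as well, stood at 51.5 and 11.6 CPM with GW501516, and its rise was lost with limma-voom (adjusted p = 0.105) and without DMSO replicate 1 (0.179), DMSO replicate 2 (0.0653) or GW501516 replicate 1 (0.222). In the direct contrast, Fst, follistatin, an inhibitor of activins, was lower with GW501516 (91.5 and 88.9 CPM) than with ZLN005 (213 and 206 CPM), a difference of −1.22 ± 0.043, with 166 and 170.2 CPM with DMSO in between. Adora1, an adenosine receptor, differed by −1.67 ± 0.10 between the compounds. Cyp1b1, a target of the aryl hydrocarbon receptor, stood at 79.1 and 78.2 CPM with DMSO, 57.1 and 56.1 CPM with GW501516 and 16.4 and 16.3 CPM with ZLN005, a difference of 1.79 ± 0.066 between the compounds.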

How the data were processed

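Bulk polyA RNA of 10 libraries in 5 groups of 2 was sequenced. The values are read counts per gene that the authors deposited as 1 table. Reads were trimmed with Trimmomatic 0.36, aligned to mm10 with HISAT2 and counted with featureCounts of Subread 1.5.1, with SAMtools, per the submitters' processing notes. The sources used here do not give the annotation, the strand setting or the treatment of multiply mapped reads, so genes with near-identical copies or overlapping genes are uncertain.

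Of 21513 genes, 15740 passed edgeR's filterByExpr. Counts were scaled by TMM and fitted with edgeR 4.0.16 (R 4.3.3) by the quasi-likelihood test over all 10 libraries, and p-values were adjusted by Benjamini-Hochberg with a threshold of 0.05. DESeq2 1.42.0, limma-voom (limma 3.58.1), other filters, scaling, groups fitted and a replicate block were alternatives, and the edgeR script was tested on simulated data. The standard error is the log2 change divided by the root of the F statistic. Same-group replicate profiles correlated at 0.984 to 0.993, and no pair agreed within sampling noise. Members and lists were chosen with earlier results of these data known. Named genes are a few fixed genes, the 12 largest rises and falls with groups that did not overlap and a mean of at least 5 CPM in the higher group, the called PPAR targets, and up to 6 called members with the smallest p of each other list. For GW501516 against ZLN005 they are the 6 largest in each direction. Exceptions are named as chosen after their values were seen, and PPAR targets and receptors that were not called are given with their values. Promoters are from RefSeq, where 30 of 41 PPAR targets had an entry, and gene coordinates from GENCODE vM21. The counts outside the genes in which the CF libraries disagreed are an alternative chosen after seeing the data. Certain genes are not analysed here.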

Additional observations from a re-analysis of the deposited data

How the results depend on the processing

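Counts are given as higher and lower with GW501516 against DMSO, then against ZLN005. They were 1228 and 1095, then 554 and 242, in the reported fit. Fitting only the groups compared gave 2214 and 2128, then 1476 and 937, and the 3 iCM groups gave 2280 and 2140, then 1445 and 905. Leaving out each library in turn gave 585 to 749 and 347 to 507, then 260 to 279 and 81 to 105. An adjusted p below 0.01 gave 682 and 439, then 324 and 115. A size of at least 1 log2 unit gave 154 and 354, then 96 and 26, and 10 PPAR targets. Limma-voom gave 703 lower against DMSO. The share of calls that were higher was 52.9 percent, against 62 percent with limma-voom, 59.6 to 63.7 percent with a library left out, 60.8 percent at 0.01, 49.2 percent with no filter on low counts and 30.3 percent with the size limit. With the replicate number as a block, the counts were 1172 and 1063, then 516 and 202, and 24 PPAR targets. Over all genes, same-numbered libraries showed no shared deviation (correlation of 0.00881 between DMSO and GW501516, at most 0.0398 in any pair of groups). The labels give only replicate numbers, so whether the samples were prepared in pairs stays unknown. The median log2 change of all genes moved from −0.005 to 0.003 with DESeq2 size factors. Of 223 called named genes 152 kept their call in all settings run for them, and 0 values reversed. The causes were not tested. With 2 libraries a group, genes near 1 CPM are the least precise.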

Other observations

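Stress and signalling genes were counted in further lists. With GW501516 against DMSO, 7 of 19 genes of the integrated stress response rose and 1 fell, with 2 to 5 rises and 0 falls when a library was left out. Of 20 NRF2 response genes 4 rose (2 to 3 with a library left out). Of 11 hypoxia genes 3 rose and 1 fell (1 to 2 and 0 with a library left out). Of 15 heat shock genes 3 rose (1 to 2 with a library left out, 6 with DESeq2 and 9 with only the 3 iCM groups). Of 15 p53 targets 2 rose, and 0 with any one library left out. Of 9 targets of the aryl hydrocarbon receptor 2 rose and 2 fell (1 to 2 falls with a library left out), Ahrr, the repressor of that receptor, with a log2 change of −1.22 ± 0.25 that was lost without DMSO replicate 1 (adjusted p = 0.0609) or GW501516 replicate 1 (0.0802).

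Markers of other cells of the heart were also counted. Of 12 smooth muscle genes 4 rose and 1 fell, with 1 to 2 rises and 0 falls when a library was left out, and 7 rises and 4 falls with only the 3 iCM groups. Of 14 endothelial genes 1 rose (0 to 1 with a library left out, 0 with limma-voom) and 1 fell. Of 11 epicardial and mesothelial genes 3 rose (2 with any one library left out) and 1 fell (0 with any one left out). Of 18 inflammation and chemokine genes 1 rose (0 with any one library left out) and 2 fell (1 to 2). None of 4 tested adipocyte genes was called by edgeR, DESeq2 or limma-voom, with 1 up at an unadjusted p below 0.05, and none of 5 Schwann and neuronal genes was, with 0 at an unadjusted p below 0.05.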
